A study of Mus musculus with 22 samples.

Results

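Cadherins and protocadherins were followed in hippocampal CA1 mRNA as the 94 genes, of 23361 in the FPKM matrix, whose symbol is Cdh with a number or begins with Pcdh. They comprised 23 cadherins, 59 clustered protocadherins (15 Pcdha, 22 Pcdhb and 22 Pcdhg genes) and 12 other protocadherins. The 22 female mice were wild type, Swiss Webster x DBA/C57BL6 F1 hybrids, and each gave 1 library of microdissected CA1. Mice fed without restriction (AL, the normal diet of the labels) were examined at 5 months (n = 5) and 15 months (n = 6), and mice on a calorie-restricted diet (CR) reduced in carbohydrates at 5 months (n = 5) and 15 months (n = 6). CR began in young adulthood, so the older CR mice had also been restricted for longer than the younger ones. Levels are FPKM, fragments scaled to transcript length and to the number of mapped fragments. They may be compared between genes, within the limits given below for genes that share exons.

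Cadherins are calcium-dependent adhesion proteins that bind the same or a related cadherin on the neighboring cell. The classical cadherins of types I and II bind catenins through their cytoplasmic tail and thereby reach the actin cytoskeleton, and N-cadherin is the best known of them at hippocampal synapses. The clustered protocadherins give neurons a surface identity used in self-avoidance of dendrites. Each first exon of the Pcdha and Pcdhg clusters has its own promoter and is spliced to constant exons that the whole cluster shares, whereas Pcdhb genes have no constant exons. The other protocadherins include the delta-1 and delta-2 groups, whose tails bind phosphatase 1 or proteins of the WAVE actin-regulating complex.

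A member was tested if its mean over all libraries was at least 0.1 FPKM, which 89 of 94 reached. The other 5 were Cdh16, Cdh17, Cdh26, Pcdh12 and Pcdha4-g, the last listed at 0 in every library. Among those tested, Cdh1 and Cdh3 reached the limit through high values in 1 group or a few libraries, as described below. The levels log2(FPKM + 0.1) of the 4 groups were fitted together with limma, and a gene is called differentially expressed where the Benjamini-Hochberg adjusted p of limma's two-sided test, taken over all 16978 genes tested, is under 0.05. Fold changes are on that log2(FPKM + 0.1) scale, which understates changes of low genes, and are given with the standard error (SE) of the fit. Exact permutation p-values are two-sided and compare the group means of the same log2 levels. With 6 against 5 mice they cannot fall below 0.0022.

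Markers of CA1 pyramidal neurons were present in all groups, but the libraries differed in regional content. The summed FPKM of 6 CA1 markers was 217 to 487 in AL mice at 5 months, 286 to 428 in CR mice at 5 months, 172 to 268 in AL mice at 15 months and 84.1 to 416 in CR mice at 15 months. The sum of 8 markers of neocortex and subiculum was 89.7 to 134, 72.3 to 147, 155 to 206 and 82.0 to 219 FPKM in the same order, and no marker of either list was at 0 in any group. A region score, the mean log2 level of the second list minus that of the first, ran from -3.26 to -1.65 in AL mice and from -3.23 to -2.32 in CR mice at 5 months, from -0.89 to 1.26 in AL mice at 15 months and from -3.05 to 0.36 in CR mice at 15 months. The AL mice of 5 and 15 months did not overlap in this score, so that age and regional content cannot be told apart among them. Of the CA1 markers 4 of 6 were lower with age in AL mice and none higher. Of the neocortex and subiculum markers 3 of 8 were higher and 1 lower. Of all genes 9.97% were lower and 10.7% higher. In bulk tissue, fewer cells of a type and less RNA per cell cannot be told apart. Library median FPKM was 2.51 to 3.10, with 18281 to 19175 genes above 0. In AL mice the medians did not overlap, at 2.57 to 2.68 at 5 months and 2.72 to 3.10 at 15 months. In CR mice they were 2.51 to 2.76 and 2.58 to 2.76.

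Upstream sequences are shown for 4 members that changed most with age in AL mice and whose window overlapped no annotated exon, so that the genomic context of these genes is at hand. They are the 150 bases before the RefSeq start of transcription on GRCm38.p6, written 5′ to 3′ on the strand of the gene. Pcdh20 (chr14:88471397-88471546, minus strand) and Cdh24 (chr14:54641365-54641514, minus strand) fell with age, and Cdh6 (chr15:13173676-13173825, minus strand) and Pcdh15 (chr10:73821717-73821866, plus strand) rose. The Pcdh15 window lies within the longer gene that GENCODE annotates, in an intron. Capitals mark 3 core promoter motifs, each searched on both strands. The GC box is spelled GGGCGG, the CCAAT box is named by its letters, and the TATA box is spelled TATAAA.
Pcdh20: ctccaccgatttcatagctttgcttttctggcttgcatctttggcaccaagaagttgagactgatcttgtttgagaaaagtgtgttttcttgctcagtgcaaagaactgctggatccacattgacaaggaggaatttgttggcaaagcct
Cdh24: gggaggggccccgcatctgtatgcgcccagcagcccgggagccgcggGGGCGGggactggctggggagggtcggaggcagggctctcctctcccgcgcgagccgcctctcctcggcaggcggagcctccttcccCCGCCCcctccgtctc
Cdh6: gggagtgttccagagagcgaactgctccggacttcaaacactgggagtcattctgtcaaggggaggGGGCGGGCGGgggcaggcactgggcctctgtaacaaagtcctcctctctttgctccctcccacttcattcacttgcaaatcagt
Pcdh15: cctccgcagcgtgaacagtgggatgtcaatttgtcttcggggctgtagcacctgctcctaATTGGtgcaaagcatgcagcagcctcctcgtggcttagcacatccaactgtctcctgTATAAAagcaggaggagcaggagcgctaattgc
The Pcdh20 window held none of these letters and had a GC content of 43.3%. Cdh24 had 78.0% GC with 2 GC boxes, and Cdh6 had 57.3% GC with 2 overlapping GC boxes. The Pcdh15 window, at 54.0% GC, held a CCAAT box and a TATA box. RefSeq promoters were found for 22 of the 94 members, none of them a clustered gene. In the 250 bases before the start, CCAAT was found in 14 of these 22 and in 34.5% of all 27025 promoters, and GGGCGG in 9 of 22 and in 32.9% of all. TATAAA was found in 2 of 22 and in 13.0% of all promoters. Of the 10 members with a promoter that were called higher with age in AL mice, 3 held GGGCGG and 7 held CCAAT. Of the 3 called lower, 2 held GGGCGG and 2 held CCAAT. The Pcdh20 match to CCAAT lay upstream of the window printed above.

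Clustered protocadherins made up 42.6% of the summed FPKM of the members, cadherins 29.8% and other protocadherins 27.6%. The median member had a mean of 3.32 FPKM, against 8.91 FPKM for all genes tested, and 81 members had at least 1 FPKM. The 10 highest members held 46.3% of the sum. Pcdhgc5 was highest with a mean of 40.0 FPKM, followed by Pcdh1 at 37.6, Cdh2 at 34.3, Pcdhgc3 at 30.9 and Cdh13 at 30.8 FPKM. Pcdh10, Pcdh20, Pcdh9, Cdh11 and Cdh8 completed the 10, of which Cdh8 was the lowest at 22.3 FPKM. Cadherins known from epithelia were low, with Cdh1 (E-cadherin) at 0.246 and Cdh3 (P-cadherin) at 0.222 FPKM, and Cdh5, the cadherin of endothelial junctions, had 2.95 FPKM.

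Within the clusters, Pcdhac2, Pcdhgc3 and Pcdhgc5 stood above their neighbors. They belong to the C-type genes, with Pcdhac1 (1.79 FPKM) and Pcdhgc4 (6.21 FPKM), whose levels lay among those of the other clustered genes. The 5 C-type genes, which most neurons are known to use in common while the remaining first exons are chosen cell by cell, held 14.8% of the members' sum. Their share of the Pcdha FPKM was 43.2% ± 1.89 (SD, n = 5) in the younger AL group, 39.7% ± 3.86 (SD, n = 6) in the older AL group, 43.2% ± 2.02 (SD, n = 5) in the younger CR group and 39.9% ± 3.49 (SD, n = 6) in the older CR group. Their share of the Pcdhg FPKM was 47.7% ± 2.40 (SD, n = 5), 44.8% ± 2.06 (SD, n = 6), 49.0% ± 1.24 (SD, n = 5) and 45.6% ± 2.60 (SD, n = 6) in the same order. The older mice of both diets thus had lower mean shares, with overlap between the ages. The remaining Pcdha and Pcdhg genes lay between 0 and 8.81 FPKM and Pcdhb genes between 0.434 and 6.28 FPKM. Position along the cluster did not order the levels, since Spearman's rho between position and mean level was -0.018 over 11 Pcdha, -0.006 over 22 Pcdhb and 0.021 over 19 Pcdhg genes without the C-type genes, a description over genes of the same libraries.

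**Figure D1:**
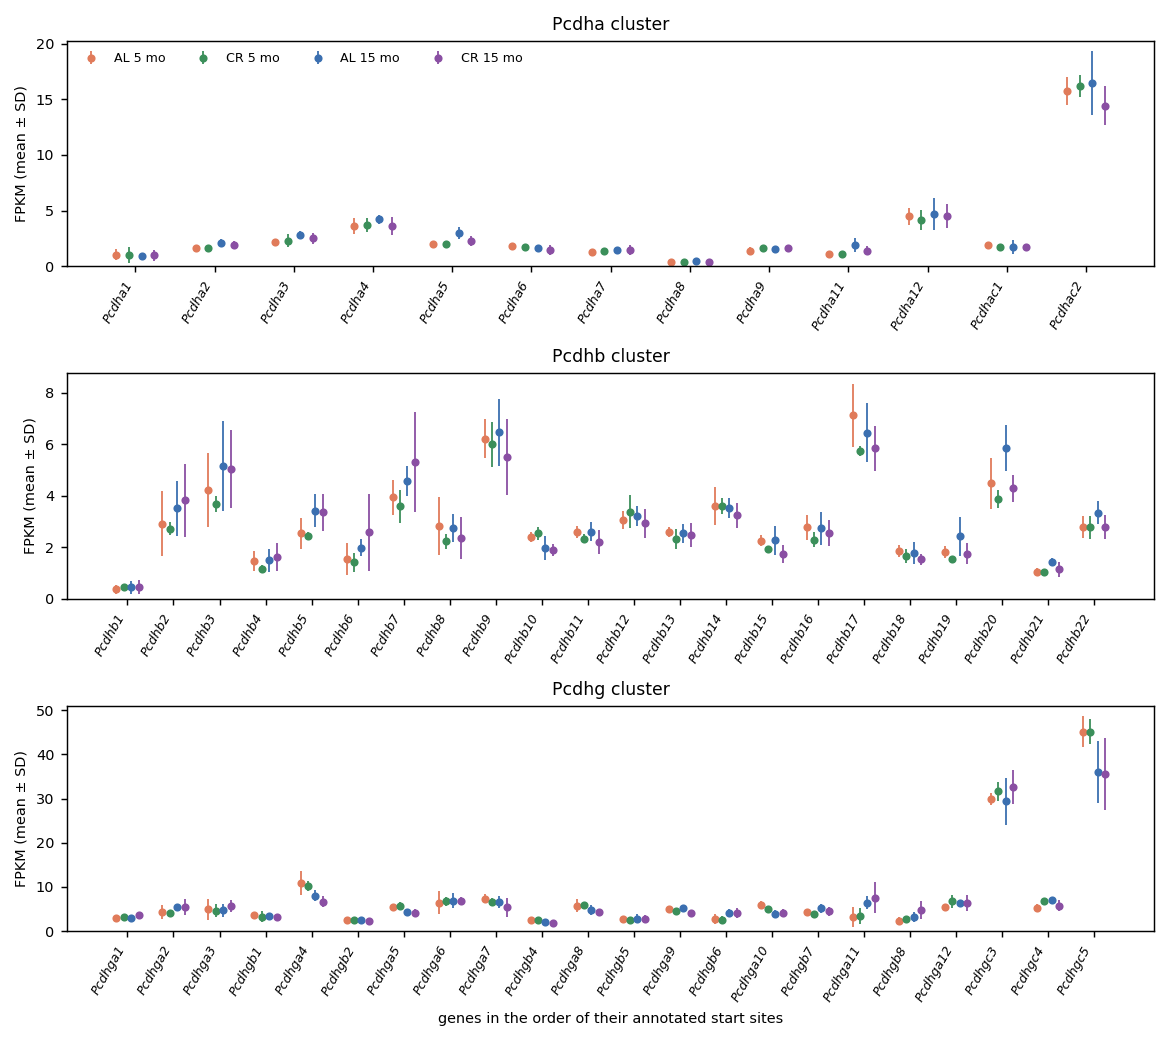
FPKM (mean ± SD, n = 5 or 6) of the clustered protocadherins in the 4 groups, each panel 1 cluster with genes in the order of their annotated starts. Pcdhac2, Pcdhgc3 and Pcdhgc5 stand above their clusters in every group. Pcdha10 and Pcdha4-g, which have no entry in the annotation used, are not drawn.

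The values of the Pcdha and Pcdhg genes depend on how the authors' software divided reads of shared exons. In GENCODE release M21, between 48.6% and 93.0% of the exon bases of each Pcdha gene located there are also exon bases of another gene, and for the Pcdhg genes the share is 31.5% to 100%. Among Pcdhb genes 19 of 22 share no exon base, and Pcdhb12 shares 63.5% with a gene on the opposite strand. The library kit does not mark strand. Reads of shared bases cannot be assigned to 1 gene by their position, so single Pcdha and Pcdhg values are uncertain. Levels also varied between mice of a group more for cadherins, with a median within-group SD of 0.40 on the log2 scale, and for other protocadherins (0.36) than for Pcdha (0.26), Pcdhb (0.25) and Pcdhg (0.29) genes of at least 1 FPKM. All genes of that level had a median of 0.19.

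Whether cadherin expression differed with age under AL feeding was asked by comparing AL mice of 15 and 5 months. Of the members tested, 27 of 89 (30.3%) were differentially expressed, 21 higher and 6 lower at 15 months, against 20.6% of all genes, 10.7% higher and 9.97% lower. With libraries scaled to a common median 23 members were called, 15 higher and 8 lower, beside 3727 of all 16978 genes. After quantile normalization 20 members were called, 13 higher and 7 lower, beside 3354 of all genes. Without rescaling 3502 of all genes were called. At an unadjusted p under 0.05, also without rescaling, the count of members was 37, against 35.2% of all genes. The calls were uneven over the families, with 10 of 20 cadherins (7 higher, 3 lower), 8 of 11 other protocadherins (6 higher, 2 lower) and 9 of 58 clustered protocadherins (8 higher, 1 lower). The difference between families was not tested. The median log2 fold change was 0.40 for cadherins, 0.54 for other protocadherins and 0.06 for clustered genes, against -0.002 for all genes. In 13 members the groups did not overlap, against 14.0% of all genes.

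**Figure D2:**
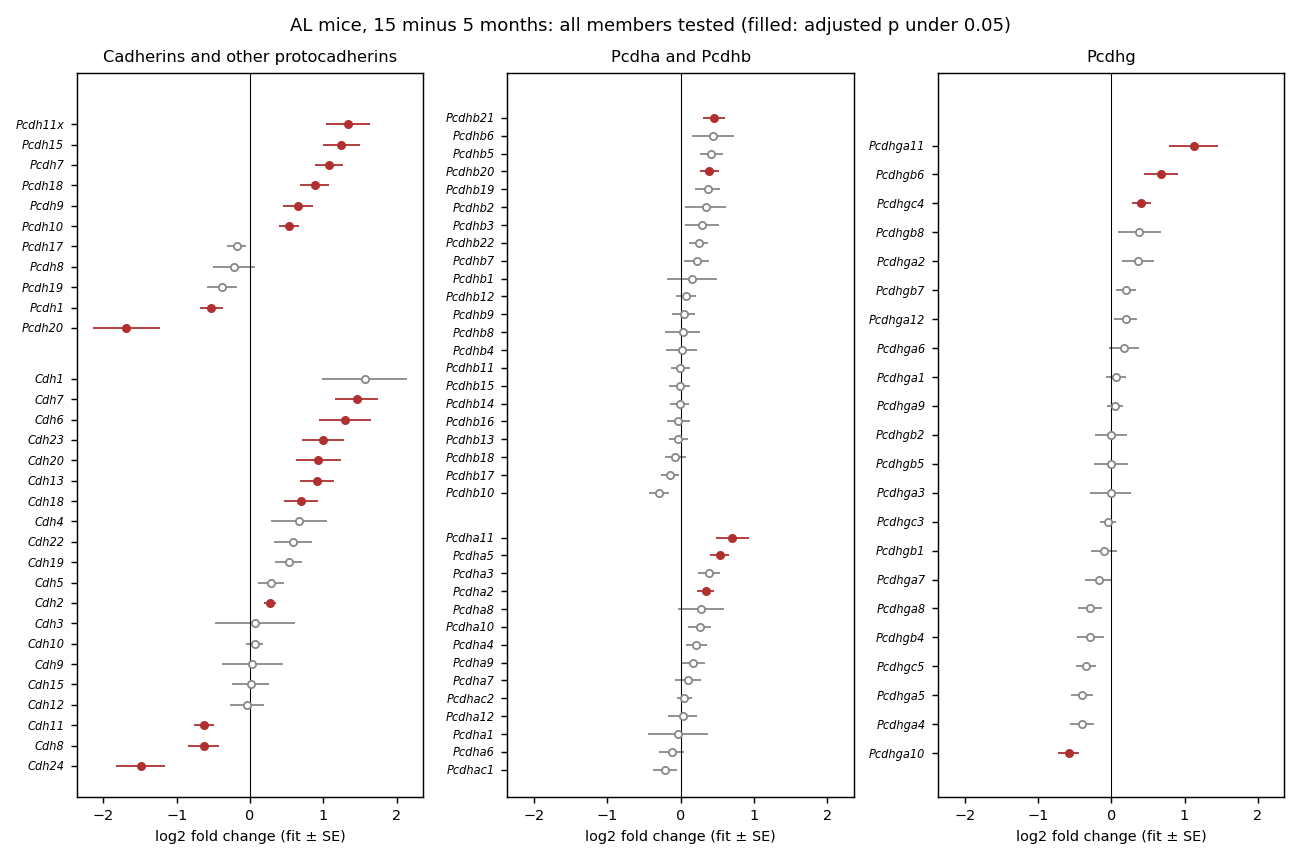
Log2 fold change (± SE of the fit) between AL mice of 15 and 5 months for the 89 members tested, by family, with filled points for those called. Called cadherins and other protocadherins reach from -1.69 for Pcdh20 to 1.45 for Cdh7, while most clustered genes lie near 0.

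The calls were refitted with the region score as a covariate. AL mice of 5 and 15 months did not overlap in that score, so this fit cannot separate age from regional content. With the region score as a covariate 0 of the 27 members remained called, 25 kept their direction, and 24 had a smaller change. The median size of the change fell from 0.70 to 0.26 on the log2 scale, and 2 members, Cdh23 and Pcdhga11, had an unadjusted p under 0.05 among the 27. Over all genes the same covariate left 0 of 3502 called and 94.9% with the same sign, 83.8% were smaller, and the median size fell from 0.57 to 0.33. At an unadjusted p under 0.05 it left 10 members (11.2%) and 12.5% of all genes. The number called also depended on single mice, being 17 without AL 5 months replicate 2, 16 without AL 5 months replicate 4 and 18 without AL 5 months replicate 1. It was 19 and 24 without AL 5 months replicates 3 and 0. Without single AL mice of 15 months it ran from 20 (replicate 1 or 5) to 27 (replicate 2). Calls over all genes were not counted in the fits without single mice. Markers of other cells were counted too, where 9.97% of all genes were lower and 10.7% higher. Lower in AL mice at 15 months were 4 of 10 choroid plexus, 2 of 7 dentate gyrus granule cell, 1 of 3 CA3 and 1 of 6 oligodendrocyte markers. So were 1 of 3 oligodendrocyte precursor, 1 of 6 microglia and 1 of 5 astrocyte markers. Higher were 1 of 5 thalamus and 1 of 5 astrocyte markers. Single calls in lists this short do not show a change of a cell type. No interneuron, endothelium, pericyte or meningeal fibroblast marker was called in limma. At an unadjusted p under 0.05 there were 1, 1, 1 and 0 of these markers, against 35.2% of all genes. Their part in the changes of the members was not tested.

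Pcdh20 (chr14:88464743-88471396), a protocadherin outside the clusters and the delta groups, had the steepest fall. Its FPKM in AL mice at 5 months was 34.6, 42.8, 30.9, 33.9 and 29.8, and at 15 months it ran from 6.48 through a median of 9.90 to 17.6 in AL mice. Every older AL mouse was below every younger one. The log2 fold change of Pcdh20 was -1.69 (SE 0.46, adjusted p = 0.0145 in limma, exact permutation p = 0.0022), and -0.38 with the region score as a covariate. CR mice at 5 months had 30.2, 32.5, 27.5, 27.1 and 38.5 FPKM, similar to the AL mice of that age. CR mice at 15 months fell into separate levels, 5.35 and 5.97 FPKM in replicates 0 and 5 against 24.2, 33.1, 54.6 and 41.9 in replicates 1 to 4. The 2 low mice had region scores of 0.29 and -0.30. Replicate 4, with 41.9 FPKM, had a score of 0.36.

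Among type II classical cadherins, Cdh24 and Cdh11 also fell. Cdh24 had 6.85, 14.0, 15.2, 11.2 and 10.2 FPKM in AL mice at 5 months and 2.52 to 5.35 FPKM (median 4.06) at 15 months, with no overlap between the ages. The log2 fold change of Cdh24 was -1.49 (SE 0.33, adjusted p = 0.0038, exact permutation p = 0.0022), and -0.98 with the region score as a covariate, among the larger values left by that fit. Cdh11, an adhesion molecule of mesenchyme and of synapses, had 25.4, 28.4, 32.9, 24.9 and 26.6 FPKM at 5 months and 14.2 to 20.1 FPKM (median 17.98) at 15 months. The ages were again apart, with a log2 fold change of -0.62 (SE 0.14, adjusted p = 0.0039, exact permutation p = 0.0022).

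Cdh7 and Cdh6, also of type II, rose from low levels, and the gains were spread unevenly over the mice. Cdh7 had 1.77, 1.26, 1.83, 1.92 and 1.28 FPKM in AL mice at 5 months and 2.86 to 8.02 FPKM (median 3.90) at 15 months. All older mice were above all younger ones, and replicates 4 and 5, with 7.93 and 8.02 FPKM, were well above the other mice. The log2 fold change of Cdh7 was 1.45 (SE 0.29, adjusted p = 0.0018, exact permutation p = 0.0022). Cdh6 had 0.982, 0.608, 1.06, 1.37 and 0.856 FPKM at 5 months and 1.03 to 4.78 FPKM (median 2.19) at 15 months, where replicates 4 and 5 again had the highest values. The groups overlapped, and the log2 fold change was 1.29 (SE 0.35, adjusted p = 0.0143, exact permutation p = 0.0108). These 2 libraries also had the highest region scores of all, 1.26 and 1.16. The remaining type II calls were Cdh20 and Cdh18, higher, and Cdh8, lower, so that 4 of 13 type II members were higher and 3 lower. Type II cadherins are known for expression in separate sets of neurons and brain regions.

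Cdh2 (N-cadherin), the only type I member of the 5 tested to be called, had 32.3, 30.2, 28.5, 28.3 and 28.6 FPKM at 5 months and 34.6 to 37.6 FPKM (median 35.7) at 15 months in AL mice. The step was small but left no overlap, with a log2 fold change of 0.28 (SE 0.08, adjusted p = 0.0249, exact permutation p = 0.0022). It was -0.016 with the region score as a covariate, and the adjusted p passed 0.05 without AL 5 months replicate 2 (0.26), 3 (0.26) or 4 (0.27). Cdh1 also reached higher values in some older AL mice, 0.0168 to 1.98 FPKM (median 0.355) against 0.0233 to 0.0545 at 5 months, and was not called.

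Of the cadherins without a classical tail Cdh13 and Cdh23 were tested, and both rose, while Cdh16, Cdh17 and Cdh26 were too low to be tested. Cdh13 (T-cadherin), which is anchored to the membrane by a lipid, had 17.7, 19.7, 23.2, 18.8 and 25.3 FPKM in AL mice at 5 months and 23.5 to 70.2 FPKM (median 40.1) at 15 months. Only 1 older mouse lay within the range of the younger ones, and the log2 fold change was 0.92 (SE 0.23, adjusted p = 0.0079, exact permutation p = 0.013). Cdh23, a cadherin of the tip links of hair cells, was low, with 0.135 to 0.322 FPKM at 5 months and 0.177 to 0.758 at 15 months (log2 fold change 1.0, SE 0.29, adjusted p = 0.0177). Unlike most members its change was larger with the region score as a covariate, at 1.65, without passing the threshold (adjusted p = 0.18). Pcdh15, the partner of Cdh23 in the tip link, had 2.30, 1.59, 1.71, 2.50 and 2.47 FPKM in AL mice at 5 months and 4.56 to 5.82 FPKM (median 4.98) at 15 months. Every older mouse exceeded the younger ones, with a log2 fold change of 1.25 (SE 0.25, adjusted p = 0.0022, exact permutation p = 0.0022), and 0.39 with the region score as a covariate.

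**Figure D3:**
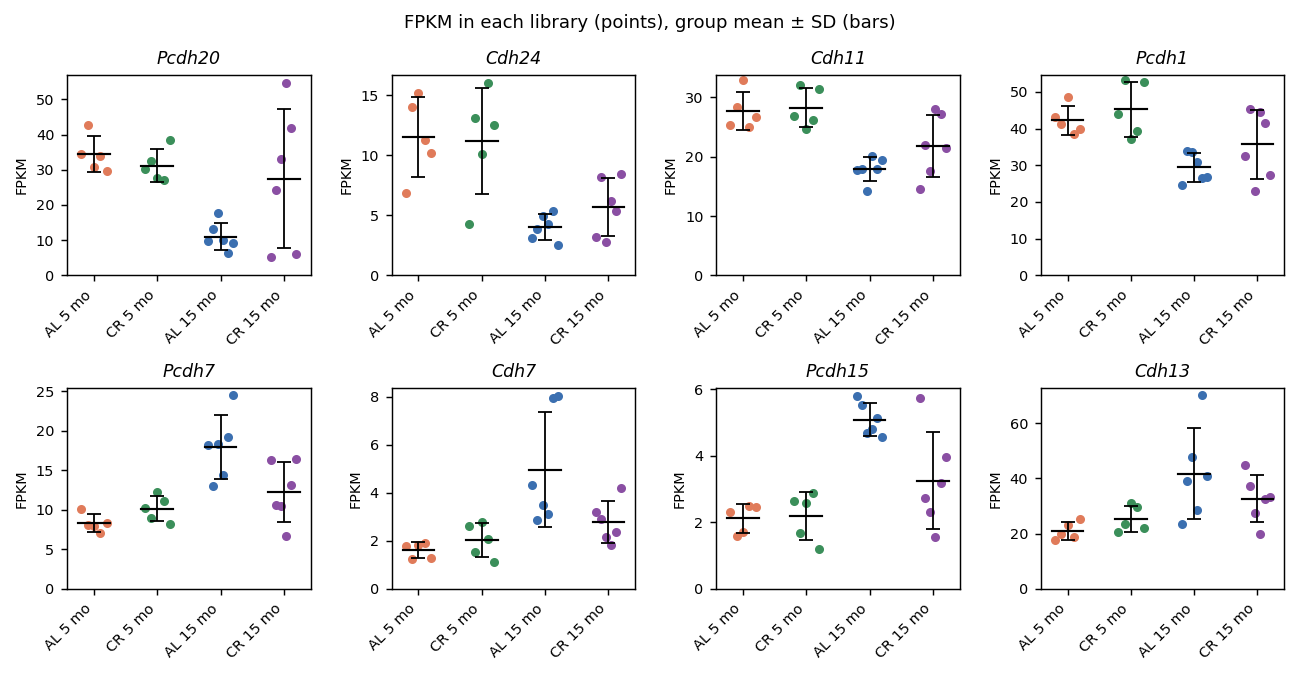
FPKM of 8 members in each library (points) with the group mean ± SD (bars, n = 5 or 6). Pcdh20, Cdh24, Cdh11 and Pcdh1 are lower and Pcdh7, Cdh7, Pcdh15 and Cdh13 higher in AL mice at 15 than at 5 months. CR mice at 15 months span much of the range, Pcdh20 from 5.35 to 54.6 FPKM.

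All 4 delta-1 protocadherins tested were called, 3 higher and 1 lower. Pcdh7 (chr5:57717967-58133230) had the smallest p of the members, with 10.1, 8.04, 7.92, 7.07 and 8.36 FPKM in AL mice at 5 months and 12.998 to 24.5 FPKM (median 18.2) at 15 months. The ages did not overlap, and the log2 fold change was 1.08 (SE 0.19, adjusted p = 0.00098, exact permutation p = 0.0022). An annotated antisense gene overlaps 21% of the Pcdh7 exon bases, and its reads cannot be told apart without strand. With the region score as a covariate the change was 0.20. Pcdh11x (chrX:120290259-120910619) had 2.20, 0.953, 0.901, 1.10 and 1.66 FPKM at 5 months and 2.15 to 5.03 FPKM (median 3.82) at 15 months, with a slight overlap between the ages. For Pcdh11x the log2 fold change was 1.33 (SE 0.30, adjusted p = 0.0047, exact permutation p = 0.0065). Pcdh9 was the other delta-1 member that was higher.

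Pcdh1, the most abundant protocadherin outside the clusters, was the delta-1 member that fell. It had 43.1, 41.2, 48.6, 38.5 and 39.8 FPKM in AL mice at 5 months and 24.6 to 33.9 FPKM (median 28.9) at 15 months, with no overlap. The log2 fold change was -0.53 (SE 0.16, adjusted p = 0.0215, exact permutation p = 0.0022), and without AL 5 months replicate 2 it was -0.48 and not called (adjusted p = 0.063).

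Of the 5 delta-2 protocadherins, Pcdh10 and Pcdh18 rose and Pcdh8, Pcdh17 and Pcdh19 were not called. Pcdh10, which takes part in the removal of the scaffold protein PSD-95 from synapses, had 21.7, 19.0, 24.1, 19.9 and 24.0 FPKM at 5 months and 26.7 to 40.05 FPKM (median 29.4) at 15 months. All older mice lay above the younger ones (log2 fold change 0.54, SE 0.13, adjusted p = 0.0089, exact permutation p = 0.0022). Pcdh18 was near 1 FPKM, with 0.701, 0.534, 0.543, 0.531 and 0.832 FPKM at 5 months and 0.903 to 1.61 FPKM (median 1.25) at 15 months (log2 fold change 0.88, SE 0.20, adjusted p = 0.0053).

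Of the clustered protocadherins 3 of 14 Pcdha (21.4%), 2 of 22 Pcdhb (9.09%) and 4 of 22 Pcdhg genes (18.2%) were called, together 15.5%, where 20.6% of all genes were. Pcdha5 had 2.28, 2.19, 1.86, 2.03 and 1.75 FPKM in AL mice at 5 months and 2.37 to 3.72 FPKM (median 2.88) at 15 months. The ages did not overlap, and the log2 fold change of Pcdha5 was 0.53 (SE 0.13, adjusted p = 0.0075, exact permutation p = 0.0043). It shares 54.9% of its exon bases with other genes. Pcdhga11 had 7.29, 1.86, 2.70, 2.30 and 2.23 FPKM at 5 months and 4.96 to 8.91 FPKM (median 6.15) at 15 months, so that 1 younger mouse, replicate 0, lay among the older ones. The log2 fold change of Pcdhga11 was 1.13 (SE 0.33, adjusted p = 0.0219, exact permutation p = 0.0195). The call was lost without AL 5 months replicate 1 (0.98) or 4 (1.04). With the region score as a covariate its change was 1.55 and was not called (adjusted p = 0.24).

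Pcdhga10 was the only clustered gene called lower, among 23 of 58 with a negative change. It had 4.86, 6.21, 6.70, 6.62 and 5.52 FPKM at 5 months and 3.29 to 4.98 FPKM (median 3.76) at 15 months (log2 fold change -0.58, SE 0.14, adjusted p = 0.0067, exact permutation p = 0.0108). In GENCODE release M21 all of its exon bases are also exon bases of other annotated genes. The annotation release the authors used is not given, so how far its value rests on shared reads is not known. The 3 highest clustered genes were not called. Pcdhgc5 had a log2 fold change of -0.34 (SE 0.14, adjusted p = 0.081), Pcdhgc3 of -0.05 (SE 0.10) and Pcdhac2 of 0.05 (SE 0.10). The direction was not stable for Pcdhgc3 and Pcdhac2, whose changes were 0.20 and -0.22 with the region score as a covariate.

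Partner genes from lists chosen with earlier results known were compared in the same fit. Of 10 kinases and WAVE complex genes linked to protocadherin tails, 6 were lower in AL mice at 15 months and none higher, where 9.97% of all genes were lower. Wasf1, the neuronal WAVE protein, had 163 ± 14.7 FPKM (SD, n = 5) in the younger and 95.0 ± 11.0 (SD, n = 6) in the older AL group (log2 fold change -0.78, SE 0.15, adjusted p = 0.0016). Its complex partner Abi1 fell from 60.5 ± 6.94 (SD, n = 5) to 38.8 ± 2.36 FPKM (SD, n = 6) (log2 fold change -0.63, SE 0.12, adjusted p = 0.0015), and Cyfip1 from 26.8 ± 1.80 (SD, n = 5) to 17.3 ± 2.37 FPKM (SD, n = 6) (log2 fold change -0.63, SE 0.14, adjusted p = 0.0048). Of 11 catenins and other proteins linked, directly or not, to cadherin tails, 3 were called, where 20.6% of all genes were. Pkp4, a plakophilin of the p120 catenin group, was lower (log2 fold change -0.40, adjusted p = 0.0020), and Arvcf (0.28, adjusted p = 0.0035), of the same group, and Mllt4 (afadin, 0.36, adjusted p = 0.0054) were higher. Once the region score was added to the fit, neither list had a called gene in limma. At an unadjusted p under 0.05 there was 1 gene of each, against 12.5% of all genes. The log2 fold changes in that fit were -0.30 for Wasf1, -0.33 for Abi1, -0.13 for Cyfip1, -0.13 for Pkp4, 0.28 for Arvcf and 0.16 for Mllt4.

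Of 16 other genes of the cadherin superfamily tested, 4 were higher and 1 lower with age in AL mice. Of all genes 10.7% were higher and 9.97% lower. Cdhr2 (log2 fold change 1.15, adjusted p = 0.0050), Cdhr3 (-1.36, adjusted p = 0.0162) and Dsc2 (1.04, adjusted p = 0.0295) were low, with group means from 0.108 to 1.64 FPKM, and Celsr3 and Clstn3 were the other 2. Once the score was added, limma called none of the 16, with 3 at an unadjusted p under 0.05, against 12.5% of all genes. Without the score, none of 7 proteases that process cadherins was called, with 1 at an unadjusted p under 0.05. None of 10 chromatin factors known from the clustered protocadherin promoters was called, with 4 at an unadjusted p under 0.05. For both lists the share of all genes at that level was 35.2%. Between CR and AL mice of 15 months no gene of these 5 lists was called in limma, where 0.742% of all genes were. Each list had 1 to 3 genes at an unadjusted p under 0.05, against 17.1% of all genes. With age in CR mice Cdhr3 (-1.74) was the only gene of these lists called, where 3.36% of all genes were.

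Age was then compared within CR mice, which share no library with the AL comparison. Of the members tested, 2 of 89 (2.25%) were differentially expressed, 1 higher and 1 lower, against 3.36% of all genes, 1.1% higher and 2.26% lower. At an unadjusted p under 0.05 there were 22, against 18.0% of all genes, with 11 higher (8.68% of all genes) and 11 lower (9.28%). The groups did not overlap in 6 members, against 3.26% of all genes. Without Cdh3, described below, these were 21 of 88, 10 of them lower, and 5. Cdh19, a type II cadherin known from the glial lineage of peripheral nerves, had 3.27, 2.98, 2.19, 3.13 and 3.69 FPKM in CR mice at 5 months and 4.22 to 7.73 FPKM (median 5.01) at 15 months. Every older mouse was above every younger one (log2 fold change 0.76, SE 0.19, adjusted p = 0.0262, exact permutation p = 0.0022). In AL mice the change of Cdh19 was 0.53 and just missed the threshold (adjusted p = 0.051). Pcdhga4 had 9.08, 10.7, 11.6, 8.93 and 10.9 FPKM at 5 months and 4.92 to 8.14 FPKM (median 6.87) at 15 months, again with no overlap (log2 fold change -0.62, SE 0.16, adjusted p = 0.0345, exact permutation p = 0.0043). It shares 66.8% of its exon bases with other genes. Both calls rested on single libraries. Cdh19 was lost without CR 15 months replicate 5 (0.65) or CR 5 months replicate 1 (0.76) or 2 (0.65). Pcdhga4 was lost without CR 15 months replicate 1 (-0.54), 2 (-0.61) or 3 (-0.58) or CR 5 months replicate 1 (-0.60), 2 (-0.57) or 4 (-0.60). The number called was 0 without CR 5 months replicate 1, 1 without CR 5 months replicate 2 or 4 or CR 15 months replicate 2 or 5, and 6 without CR 5 months replicate 0. It was 0 with the region score as a covariate.

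Cdh3 moved with the markers of choroid plexus, the epithelium that secretes cerebrospinal fluid. It had 0.0401, 0.123, 0.0960, 0.874 and 3.11 FPKM in CR mice at 5 months and at most 0.178 FPKM in any library of the other 3 groups. The 2 high libraries had summed choroid plexus markers of 82.3 and 344 FPKM, against 1.90 to 39.1 in the other 20 libraries. With age in CR mice 7 of 10 choroid plexus markers were lower, against 2.26% of all genes. Since Cdh3 reached the limit for testing only through the CR mice of 5 months, no test of it is given, and the counts that include it are also given without it. Cdh3 was chosen after its values were seen, and the part of choroid plexus in it was not tested.

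Of the 27 members called with age in AL mice, 26 (96.3%) had a change of the same sign in CR mice, where 94.6% of all genes called in AL mice did. The median change in the AL direction was 0.29 in CR mice and 0.70 in AL mice. These members were chosen by their AL change, and over all 3502 genes chosen in that way the medians were 0.25 and 0.57. An unadjusted p under 0.05 in the same direction was reached in CR mice by 8 of the 27 (29.6%), against 43.7% of all genes called in AL mice, and in the opposite direction by none, against 2 of all genes. In CR mice 14 of the 27 (51.9%) had the sign seen in AL mice when the region score was a covariate, against 72.4% of all genes called there. Pcdhga11 (1.11, SE 0.33), Cdh24 (-0.95, SE 0.33) and Cdh11 (-0.40, SE 0.14) had some of the larger values in CR mice, each with an unadjusted p under 0.05. Pcdh11x (0.03, SE 0.30), Pcdh10 (0.02, SE 0.13) and Pcdh18 (0.07, SE 0.20) had changes near 0 there. The 1 member with the opposite sign was Pcdhgc4, at 0.41 in AL and -0.24 in CR mice.

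**Figure D4:**
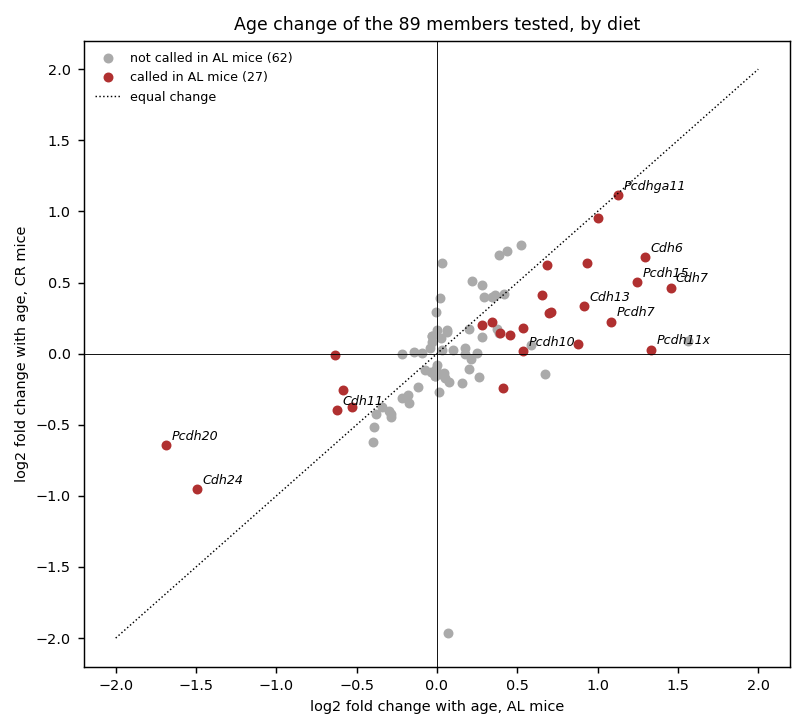
Log2 fold change between 15 and 5 months in AL mice (horizontal) and CR mice (vertical) for the 89 members tested, with the 27 called in AL mice in red and a dotted line at equal change. Most called members lie between the line and the horizontal axis, with Pcdhga11 close to the line and Pcdh11x close to the axis.

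The difference between the diets was tested by the age by diet interaction. No member passed the threshold in limma, as no gene of the whole table did, and 8 members had an unadjusted p under 0.05, against 7.66% of all genes (3.15% with a positive and 4.52% with a negative interaction). All 8 were negative, 7 of 88 without Cdh3, whose sign is fixed by the CR mice of 5 months through which it was tested. A negative value is a more positive change with age in AL than in CR mice. They included Pcdh11x (-1.31, SE 0.43, adjusted p = 0.61), Pcdh7 (-0.86, SE 0.27, adjusted p = 0.61), Pcdh18, Pcdh10, Cdh7 and Pcdh15, all of them higher with age in AL mice, and Pcdhgc4. The interaction subtracts the age change in AL mice, so a high AL change by itself favors a negative value. With no member past the threshold, the diets are not shown to differ in the age change of any member.

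CR and AL mice of 15 months were compared for the effect of diet in older adults. No member was called in limma, where 0.742% of all genes were, and 13 members had an unadjusted p under 0.05, against 17.1% (8.26% higher and 8.83% lower in CR mice). All 13 were lower in CR mice, and no member had groups without overlap, against 0.984% of all genes. Pcdh11x came nearest, with 1.74, 0.876, 1.42, 0.901, 1.53 and 2.83 FPKM in CR mice against 3.75, 2.15, 4.03, 2.40, 3.89 and 5.03 in AL mice, where only the highest CR mouse reached the AL range. Its log2 fold change was -1.19 (SE 0.29, adjusted p = 0.056 in limma, exact permutation p = 0.0065), and -0.71 with the region score as a covariate. Pcdh7 (-0.58, SE 0.18), Pcdh15 (-0.74, SE 0.24), Cdh7 (-0.74, SE 0.27), Pcdha5 (-0.38, SE 0.12) and Pcdh10 (-0.34, SE 0.13) were also lower, with adjusted p between 0.129 and 0.187. With the region score as a covariate they had -0.20, -0.38, -0.34, -0.20 and -0.22 in the same order. The part of regional content in these values was not tested. The other 7 were clustered genes, 5 of them Pcdhb. This comparison uses the same AL libraries of 15 months as the age comparison in AL mice, so the values of both comparisons are not independent.

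Of the members called lower with age in AL mice, none passed the threshold under CR at 15 months. The log2 fold changes were 0.90 for Pcdh20 (SE 0.44, adjusted p = 0.30 in limma), 0.43 for Cdh24 (SE 0.31), 0.25 for Cdh11 (SE 0.13), 0.24 for Pcdh1 (SE 0.15) and 0.06 for Pcdhga10. Cdh8, also lower with age, was not called either. These members were chosen by low AL libraries of 15 months that enter this comparison too, which favors positive values. With the region score as a covariate the 5 values were 0.35, 0.21, 0.14, 0.10 and -0.094 in the same order. The number of members called changed without either of 2 CR libraries. Calls over all genes were not counted in those fits. Without CR 15 months replicate 0 the members called were 5 (Pcdh11x, Pcdh15, Pcdh7, Pcdha5 and Pcdhga7, all lower in CR mice). Without CR 15 months replicate 5 they were 2 (Pcdh11x and Pcdhb20). These 2 mice had the low Pcdh20 values, and their region scores of 0.29 and -0.30 lay within the range of the AL mice of that age, as did the score of CR 15 months replicate 4. The score of CR mice was lowest, -3.05, in replicate 3, which had the lowest Pcdh7 (6.66 FPKM) and the highest Pcdh20 (54.6 FPKM) of its group.

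**Figure D5:**
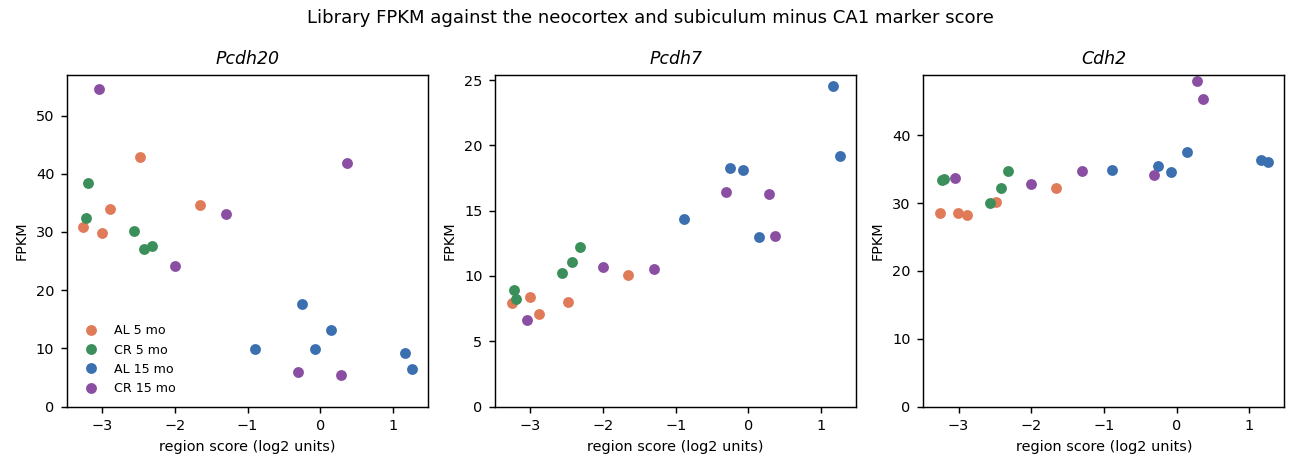
FPKM of Pcdh20, Pcdh7 and Cdh2 in each library (vertical) against its region score (horizontal), colored by group. AL mice of 5 and 15 months lie apart on the horizontal axis, from -3.26 to -1.65 and from -0.89 to 1.26, while CR mice of 15 months spread over both ranges.

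At 5 months, CR and AL mice differed in no member in limma, with 0.0% of all genes called, and 5 members had an unadjusted p under 0.05, against 4.65% of all genes, 4 of 88 without Cdh3, which was tested only because of its level in these CR mice. The others were Pcdhgc4, Pcdh18 and Pcdh17, with higher values in CR mice (2.49% of all genes), and Pcdhb17, with lower values (2.16%). No member had groups without overlap, against 1.36% of all genes. The log2 fold changes of these 4 were between -0.29 and 0.48.

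The comparison of CR mice of 15 months with AL mice of 5 months asked which members of older CR mice differed from the younger level. It called 5 of 89 (5.62%), 3 higher and 2 lower, against 3.12% of all genes, 1.38% higher and 1.73% lower. At an unadjusted p under 0.05 there were 27, against 19.3%, with 14 higher (9.70% of all genes) and 13 lower (9.59%), and 3 members had groups without overlap (2.94%). Called were Cdh19 (0.79, SE 0.19, adjusted p = 0.0241), Cdh2 (0.35, SE 0.08, adjusted p = 0.0269) and Pcdhga11 (1.26, SE 0.33, adjusted p = 0.0422) higher, and Pcdhga4 (-0.67, SE 0.16, adjusted p = 0.0269) and Pcdhga10 (-0.52, SE 0.14, adjusted p = 0.0480) lower. Cdh2 in CR mice of 15 months ran from 32.8 through a median of 34.4 to 48.0 FPKM, all above the 28.3 to 32.3 FPKM of the younger AL mice. Pcdhga11 in those CR mice had 4.91 to 14.0 FPKM (median 6.52). The comparison shares libraries with each of the age comparisons. Its count ran from 0 (without AL 5 months replicate 1 or 2) to 7 (without AL 5 months replicate 0). It was 1 without AL 5 months replicate 3 or 4, and 3 without CR 15 months replicate 1, 2 or 5, CR 5 months replicate 3 or AL 15 months replicate 3. It was 0 in a separate fit of both groups and 0 with the region score as a covariate. Of the members that had fallen most with age in AL mice, Cdh24 had a log2 fold change of -1.06 (SE 0.33, adjusted p = 0.080) and Pcdh20 of -0.78 (SE 0.46, adjusted p = 0.38), and neither was called.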

How the data were processed

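The deposited matrix holds FPKM per gene for 22 libraries. From total RNA with poly(A) selection and an unstranded kit, the authors aligned reads to mm10 with TopHat, removed duplicates with Picard and estimated FPKM with Cufflinks, correcting for bias and for reads with several positions. Counts could not be recovered from FPKM, as at most 1.77% of genes lay on a common ratio between libraries. The paper gives only an average depth over samples. The depth of each library is thus unknown, and precision rests on how far mice of a group differ.

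Those 16978 genes whose FPKM averaged 0.1 or more were tested as log2(FPKM + 0.1) with limma 3.58.1 in R 4.3.3 (lmFit and eBayes with trend, 4 groups in 1 fit). Permutation tests enumerated every relabeling of the mice in Python 3.11.15 with numpy 2.4.6, and Spearman's rho came from scipy 1.17.1. The steps were checked on simulated data. Coordinates are from GENCODE M21 and promoter sequences from RefSeq, both on GRCm38, the assembly of mm10; the annotation release the authors used is not given in the sources used here. Members, marker lists and partner lists were chosen with earlier results of these data known. Named are, per comparison, called members of at least 1 FPKM in either group (at most 15, by p), called low members, the 3 highest members of each family, and at most 3 called genes of each partner list. Other names were added after their values were seen. Library numbers do not pair mice. Alternatives were pseudocounts of 1 and 0.01, other filters, common-median and quantile scaling, a separate fit, the library number as a block, the region score as a covariate and each library left out in turn.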

Additional observations from a re-analysis of the deposited data

Results flagged for a closer look

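3 values of named members stood apart from the rest of their group by Dixon's test, out of 84 groups of 5 or 6 libraries tested, where chance gives about 1 in 20. Cdh11 was 14.2 FPKM in AL 15 months replicate 2, against 17.8 to 20.1 FPKM in the other mice of that group. Pcdhga11 was 7.29 FPKM in AL 5 months replicate 0, against 1.86 to 2.70 FPKM in the others. Cdh19 was 7.73 FPKM in CR 15 months replicate 5, against 4.22 to 5.12 FPKM in the others.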

How the results depend on the processing

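Every number of members called rests on 5 or 6 mice a group, and the depth of each library is unknown. Reads of exons shared within the Pcdha and Pcdhg clusters were divided by the authors' software. With the region score as a covariate the members called numbered 0 with age in AL mice, 0 with age in CR mice and 0 between CR mice of 15 months and AL mice of 5 months, against 27, 2 and 5. Of all genes 0, 136 and 77 were then called, against 3502, 570 and 529. Leaving out 1 library gave 16 to 28 with age in AL mice, 0 to 6 with age in CR mice, 0 to 5 for CR at 15 months and 0 to 7 for CR 15 months minus AL 5 months. Calls over all genes were not counted in those fits, so whether they moved alike is not known. For CR at 15 months a pseudocount of 1 gave 1 called member (Pcdh11x) instead of 0. For CR 15 months minus AL 5 months, testing all genes above 0 gave 3 and a separate fit 0. The numbers of CR at 5 months and of the interaction were 0 under every alternative run. The separate fit was not run for the interaction, which needs all groups.

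The library numbers do not pair mice: of 31 same-numbered pairs 2 correlated above 0.1 (-0.14 to 0.16). With the number as a replicate block, 25 members were called with age in AL mice (24 of the 27 among them), 2 with age in CR mice, 2 for CR at 15 months (Pcdh11x and Pcdh7, both lower), 6 for CR 15 months minus AL 5 months and 0 in the rest. Its log2 values changed sign for Pcdhgc3 with age in AL mice (0.022) and, with age in CR mice, for Pcdh11x (-0.12) and Pcdh10 (-0.037), none of them called in either fit.

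Directions also turned with the region score as a covariate. With age in AL mice the log2 fold changes were then -0.016 for Cdh2, 0.20 for Pcdhgc3 and -0.22 for Pcdhac2. With age in CR mice they were -0.31 for Pcdh7, -0.10 for Cdh7, -0.015 for Pcdh15, -0.66 for Pcdh11x, -0.33 for Pcdh18, -0.087 for Pcdha5, -0.056 for Cdh13, -0.15 for Pcdh10 and 0.15 for Pcdh20. For CR at 15 months they were -0.094 for Pcdhga10 and -0.045 for Pcdhga11. Leaving out 1 library turned only values near 0: with age in AL mice Pcdhgc3 (-0.11 to 0.030) and Pcdhac2 (-0.011 to 0.099), with age in CR mice Pcdh11x (-0.16 to 0.16), Pcdh18 (-0.069 to 0.19) and Pcdh10 (-0.058 to 0.097), and for CR at 15 months Pcdhga11 (-0.066 to 0.23). The cause of these changes was not tested. No named value turned under the other pseudocounts, filters and scalings or in a separate fit.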
